A study of Mus musculus with 6 samples.

Results

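Gas6 and the TAM receptor kinases were examined in mouse embryonic fibroblasts (MEFs), connective tissue cells cultured from embryos, as a set of 5 genes: the ligands Gas6 and Pros1 and the receptors Axl, Mertk and Tyro3. They were chosen by name, as the ligands and receptors of this pathway, with earlier results of these data known. Each had exactly 1 probe set that named it alone, so all 5 were measured, of 22180 genes in all. RNA came from Pax7+/+ (wild type) and Pax7-/- (knockout) cells, 3 arrays of each, numbered 1 to 3 as biological replicates in the labels. Both genotypes shared the F1 (C57Bl6N x 129Sv) strain, standard medium with serum and collection at confluence, and no age, embryo or culture is named for a number, so the p-values measure the spread between these samples only. Pax7, a transcription factor with a paired domain and a homeodomain, is best known for its role in muscle stem cells; the question here is which genes differ in fibroblasts that lack it.

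TAM receptors are receptor tyrosine kinases of the cell surface, named after Tyro3, Axl and Mertk. Their ligands, Gas6 and protein S (the product of Pros1), carry vitamin K-dependent Gla domains that bind phosphatidylserine on dying cells and membrane vesicles, and so bridge such membranes to the receptor. Gas6 was first isolated as a transcript that accumulates when cultured fibroblasts stop growing, and Axl is the TAM receptor usually described in fibroblasts, while Mertk is best known from macrophages and Tyro3 from the nervous system.

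All values are signals on the log2 scale, and each difference is the knockout value less the wild type value. Gas6 had the largest difference of the 5 genes: it was lower in the knockout by 0.62 (1.54-fold) and by almost the same amount in each replicate number. This difference did not pass the threshold of 0.05 either without the replicate number in the model or with it (limma, adjusted p = 1.00 and 0.0578). Axl and Tyro3 were slightly higher in the knockout in every replicate number, Pros1 slightly lower, and Mertk went both ways; none of these passed. Of the 5 members, 0 passed with the replicate number as a block, where 0.0766% of all genes did, and 2 (Gas6 and Tyro3) had an unadjusted p under 0.05, against 6.73% of all genes. Without the block limma called 0% of all genes and 0 members, and 0 members had an unadjusted p under 0.05 (15 genes in all).

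The 2 replicate 3 arrays, 1 of each genotype, differed from the other 4. Their mutual correlation was 0.988, and they correlated at 0.789 to 0.824 with the rest, and their interquartile range of signal was wider (2.52 to 2.56, against 1.88 to 1.94). This offset enters the spread of a genotype unless the replicate number is in the model. For that reason values of the 5 members are given per replicate number. Each array's background level, the 95th percentile of its signals for 1394 receptor genes of smell (olfactory and vomeronasal), lay between 4.63 and 5.44. Titles and design name fibroblasts, but the label for cell type says ESCs: fibroblast markers had a median at the 98.1st to 98.6th percentile of genes on every array and pluripotency markers one at the 32.9th to 42.9th. Pax7 itself, with 1 probe set, read 6.14, 5.65 and 4.88 in wild type cells (replicates 1 to 3, in order) and 6.17, 5.95 and 5.05 in the knockout. The sources used here do not place that probe set against the deleted part, so it does not check the genotype.

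The promoters of Gas6, the ligand with the largest difference, and of Axl, the receptor best above background, are shown because the 2 genes differed in opposite directions. Sequences are those of RefSeq on GRCm38.p6, from 250 bases before to 50 after a gene start, and a window was found for all 5 members. Capitals mark GGGCGG, the GC box bound by Sp factors, read on both strands.
Gas6, chr8:13494486-13494785, minus strand: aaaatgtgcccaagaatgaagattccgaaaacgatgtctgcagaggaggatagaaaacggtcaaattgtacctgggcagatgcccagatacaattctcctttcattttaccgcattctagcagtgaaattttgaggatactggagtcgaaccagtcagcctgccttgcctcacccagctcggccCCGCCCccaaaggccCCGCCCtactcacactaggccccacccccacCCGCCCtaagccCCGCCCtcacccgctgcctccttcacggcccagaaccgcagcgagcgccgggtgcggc
Axl, chr7:25788684-25788983, minus strand: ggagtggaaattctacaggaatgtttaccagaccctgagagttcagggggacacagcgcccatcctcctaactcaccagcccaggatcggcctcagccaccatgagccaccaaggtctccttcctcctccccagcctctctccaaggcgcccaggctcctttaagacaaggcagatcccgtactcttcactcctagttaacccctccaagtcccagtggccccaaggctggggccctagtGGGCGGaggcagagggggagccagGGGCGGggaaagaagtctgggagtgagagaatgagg
The Gas6 window held 4 matches and the Axl window 2, and those of Pros1, Mertk and Tyro3 held 5, 4 and 6; of 32851 promoter windows of this length, 35.7% held at least 1. The members' windows were 58.3% to 73.3% G and C, against a median of 52.7%. TAAT, the core of homeodomain sites, had 0 matches in the windows of all 5 genes (58.0% of all windows had at least 1). GTCAC, a core of sites bound by Pax paired domains, had 2 matches in the Pros1 window and 0 in the other 4 (45.6% of all windows). Both strands were searched for every motif, and no match says only that these letters are not in this window.

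**Figure D1:**
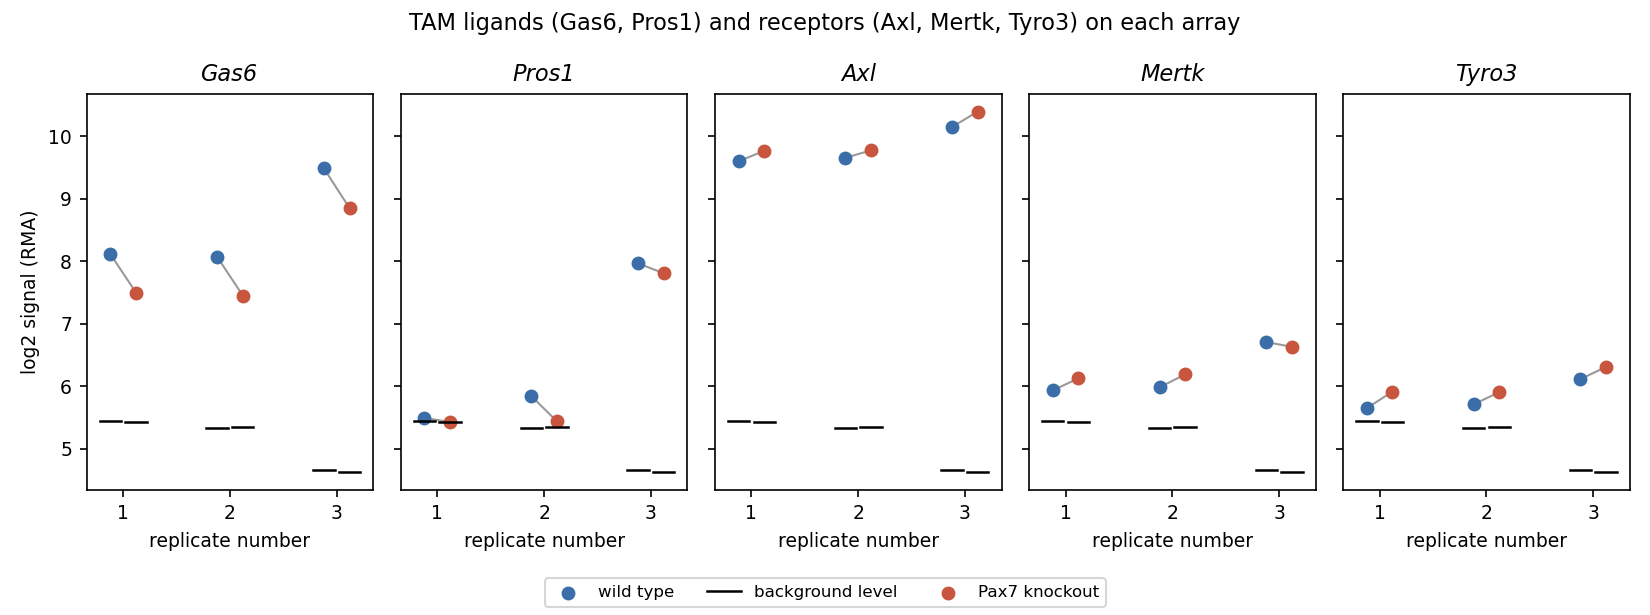
Log2 signal (RMA) of the 5 genes on each of the 6 arrays, by replicate number, with wild type in blue, knockout in red, grey lines joining equal numbers and black bars for the background level of the array. Gas6 lies 0.62 to 0.64 lower in the knockout at every number, and every gene reads highest on the replicate 3 arrays.

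Gas6, the ligand that binds all of the TAM receptors, read 8.11, 8.07 and 9.49 in wild type replicates 1, 2 and 3. In the knockout it read 7.50, 7.45 and 8.85. The knockout was lower at every number, but the genotypes overlapped because knockout replicate 3 lay above wild type replicates 1 and 2. The group means were 8.56 ± 0.81 (SD, n = 3) in wild type and 7.93 ± 0.79 (SD, n = 3) in the knockout. The difference was -0.62, -0.62 and -0.64 in replicates 1, 2 and 3, with an SD of 0.01 between them. It was thus smaller than the spread within a genotype and larger than the spread between the replicate numbers' differences. limma's standard error was 0.57 without the block and 0.09 with it (95% interval of -0.82 to -0.42 with the block), the latter drawn up from the pairs' own spread toward that of all genes. With the block, 18 genes had a smaller p than Gas6, and 47 of the 22180 genes had a lower difference. All 6 arrays read Gas6 at least 2.07 above background.

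The Gas6 call depended on the model. It passed as lower with a batch term that set replicate 3 against replicates 1 and 2 (limma, adjusted p = 0.0394), with the replicate block among genes above background only (0.0329), and with the replicate block and a variance prior that follows the mean signal (0.0188). Without replicate 1 of both genotypes it passed with the block (-0.63, adjusted p = 0.0299), and without replicate 2 or replicate 3 it did not (adjusted p = 0.223 and 0.175). Within replicates 1 and 2 alone, without a block, the difference was -0.62 (SE 0.11, adjusted p = 0.355) and the genotypes did not overlap; the replicate 3 arrays, 1 of each genotype, allow no test. Without a block and without wild type replicate 3 the difference was -0.16, and without knockout replicate 3 it was -1.08, since either step leaves 1 genotype without its replicate 3 array. Leaving out knockout replicate 1 gave -0.41, and leaving out knockout replicate 2 gave -0.38.

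Pros1 encodes protein S, a plasma anticoagulant that also acts as a ligand of Tyro3 and Mertk. It read 5.49, 5.84 and 7.97 in wild type cells at numbers 1, 2 and 3, and 5.42, 5.44 and 7.81 in the knockout. Replicates 1 and 2 lay between -0.01 and 0.51 of the background level, knockout replicate 1 just below it, while both replicate 3 arrays lay over 3 log2 units above (3.32 and 3.18). Pros1 had the largest offset of replicate 3 of the 5 genes, at 2.30 in wild type and 2.38 in the knockout, above that of 96.7% and 97.2% of genes. The knockout was lower by 0.07, 0.41 and 0.16 in replicates 1, 2 and 3, a mean difference of -0.21 (limma SE 0.10 with the block, 95% interval -0.44 to 0.02; adjusted p = 0.764). Without a block its sign turned when wild type replicate 3 (0.56), knockout replicate 1 (0.19) or knockout replicate 2 (0.18) was left out.

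Axl, the receptor with the highest affinity for Gas6, read 9.60, 9.66 and 10.15 in wild type replicates 1, 2 and 3. It read 9.77, 9.78 and 10.40 in the knockout, at least 4.16 above background on every array. The knockout was higher by 0.17, 0.12 and 0.25, and the genotypes overlapped through wild type replicate 3. The mean difference was 0.18 (1.13-fold; limma SE 0.09 in the block model, 95% interval -0.03 to 0.38; adjusted p = 0.784). The interval covers no change as well as a rise of 0.38. Without a block and without knockout replicate 3 the difference was -0.03.

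Tyro3, the TAM receptor of the nervous system, read 5.65, 5.71 and 6.11 in wild type cells at numbers 1, 2 and 3, and 5.91, 5.90 and 6.31 in the knockout. It was above background on every array, though by only 0.21 to 0.56 on the replicate 1 and 2 arrays. The differences of 0.27, 0.19 and 0.20 were all positive, with a mean of 0.22 (1.16-fold; limma SE 0.09 with the block, 95% interval 0.02 to 0.42; unadjusted p = 0.0365, adjusted p = 0.705). Mertk, the receptor through which macrophages clear dying cells, read 5.93, 5.98 and 6.71 in wild type and 6.13, 6.19 and 6.63 in the knockout. It was higher in replicates 1 and 2 (0.19 and 0.21) and lower in replicate 3 (-0.08), with a mean of 0.11 (limma SE 0.10 with the block; adjusted p = 0.885). Its margin over background was 0.49 to 0.85 on the replicate 1 and 2 arrays, and about 2 log2 units on replicate 3 (2.06 and 2.00).

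**Figure D2:**
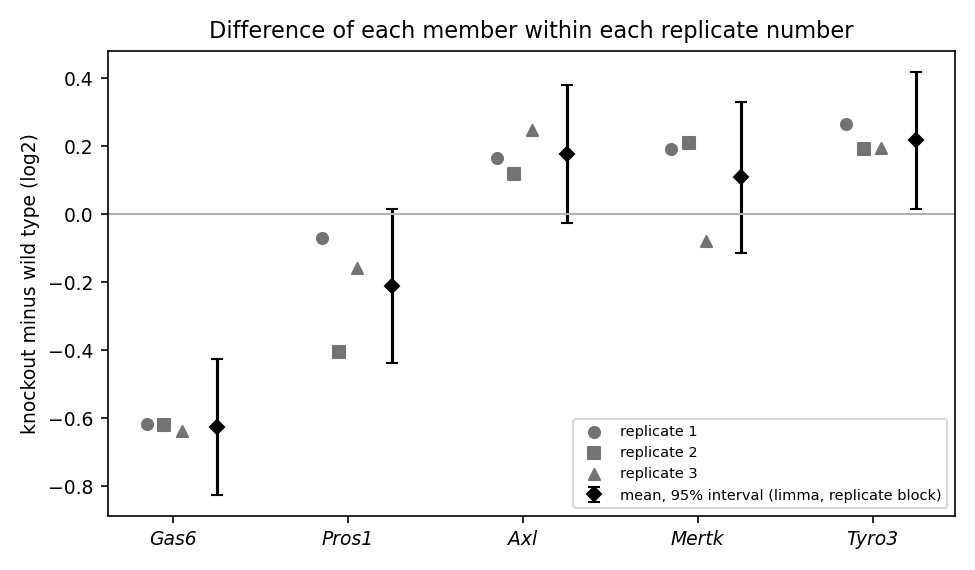
Knockout minus wild type (log2) for each of the 5 genes, with 1 grey symbol per replicate number and a black diamond for the mean with limma's 95% interval from the model with the replicate block. The 3 Gas6 symbols lie together near -0.62, those of Axl and Tyro3 lie above 0, and those of Mertk on either side of it.

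By pairs of equal number, 2 members (Gas6 and Pros1) were lower in all 3 and 2 (Axl and Tyro3) higher in all 3, where 13.8% of all genes were lower and 13.8% higher; in 0 of the 5 did the genotypes not overlap (1.41% of all genes). The members were chosen with such values in view, so nothing is read from these counts. At each replicate number Gas6 was lower in the knockout and Axl higher. The knockout minus wild type difference of Gas6 less that of Axl was -0.78, -0.74 and -0.88 in replicates 1, 2 and 3. Gas6 against Tyro3 gave -0.88, -0.81 and -0.83, and Gas6 against Mertk -0.81, -0.83 and -0.56. Gas6 against Pros1, the other ligand, gave -0.55, -0.21 and -0.48. Axl against Tyro3 gave values on both sides of 0 (-0.10, -0.07 and 0.05). These are descriptions without a test. Without the block, quantile normalization and centring each array on its median left Gas6 at -0.62 and Axl at 0.20 and 0.18.

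Across the replicate numbers, all 5 genes read higher on replicate 3 than on replicates 1 and 2 in both genotypes. The offset of replicate 3 was 1.40 in wild type and 1.38 in the knockout for Gas6. It was 0.52 and 0.63 for Axl, 0.75 and 0.47 for Mertk and 0.43 and 0.40 for Tyro3. The Gas6 offset lay above that of 83.4% of genes in wild type and of 82.9% in the knockout. For each of the 5 genes this offset, in either genotype, was larger than the difference between genotypes at any number, and the sources used here do not say what replicate 3 stands for.

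Some fibroblast markers were lower in the knockout along with Gas6. Of 13 measured, 7 were lower and 1 higher in all 3 pairs (13.8% of all genes each way), 0 passed with limma in either model (5 had an unadjusted p under 0.05 with the block, all lower, against 6.73% of all genes), and their median was -0.12 against -0.00 for all genes. Their summed linear signal spanned 14468 to 18175 in wild type and 14415 to 17735 in the knockout. The marker with the largest difference was Lum, the matrix proteoglycan lumican, which read 5.19, 5.30 and 7.08 in wild type cells and 4.48, 4.46 and 5.13 in the knockout. It was not above background in the knockout, on average over its arrays. In each genotype only the replicate 3 array read above its own background level, and the difference there was -1.95. The size of the Lum difference in replicates 1 and 2 cannot be read from signals below background. The only marker higher in all 3 pairs was Fn1, fibronectin (0.14, SE 0.09 with the block). The genotypes of 2 of the 13, Fn1 and Lum, did not overlap (1.41% of all genes). For Lum the nearest values were 5.13 in knockout replicate 3, above its array's background, and 5.19 in wild type replicate 1, below its own. Among the markers lower in all 3 pairs were Prrx1, a transcription factor of mesenchyme (-0.42, SE 0.10 with the block), and Col3a1, a chain of collagen III (-0.40, SE 0.10). Col1a1, a chain of collagen I, was at -0.06 and Vim, the intermediate filament of mesenchymal cells, at 0.04. In such bulk RNA, fewer cells of a type and less RNA per cell cannot be told apart, and the part of these markers in the Gas6 difference was not tested. Macrophage markers, which bear on Mertk, were above background in both genotypes for 4 of 14, with a median difference of -0.01. Of the 14, 4 were lower and 2 higher in all 3 pairs (13.8% of all genes each way). With the block 2 had an unadjusted p under 0.05 in limma (6.73% of all genes), both lower and neither above background. In 1 the genotypes did not overlap (1.41% of all genes). The summed signal of the 14 spanned 430 to 513 in wild type and 437 to 490 in the knockout. The 4 above background were Cd68, C1qa, Fcgr1 and Tyrobp, while others, such as Adgre1 and Ptprc, were not above it in either genotype. For Tyro3, 4 of 9 Schwann and neural markers were above background in both genotypes, with a median difference of 0.01. Hepatocytes are a main source of Pros1 in the body. Of their markers 3 of 7 (Ttr, Apoa1 and Apoa2) were above background in both genotypes, and others, such as Alb and Afp, were not. Of all 22180 genes 11773 were above background in both genotypes, a larger share than among the macrophage, neural or hepatocyte markers.

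The genes around the TAM pathway were taken from lists chosen by function or, for the growth arrest-specific genes, by name. They were chosen with earlier results of these data known, so nothing is read from the counts within them. In none of the 8 lists did a member pass with limma over all 6 arrays, with or without the replicate block. The list of other genes of the growth arrest-specific names, which includes 3 named for likeness to Gas2 (Gas2l1, Gas2l2 and Gas2l3), had 4 of 8 measured members lower in all 3 pairs (13.8% of all genes) and 1 higher (13.8%), with a median of -0.20. Gas2l3 was among those lower. With the block 3 members, none of them a Gas2-like gene, had an unadjusted p under 0.05 (6.73% of all genes), all lower, and without it 0. Gas1, a membrane protein that can arrest the cell cycle, read 7.49, 7.49 and 8.32 in wild type cells and 7.21, 6.76 and 7.26 in the knockout. Its genotypes did not overlap (1.41% of all genes), and the difference was -0.69 (SE 0.14 with the block, adjusted p = 0.188). Pmp22, the myelin protein first found as growth arrest-specific gene 3, read 7.68, 7.73 and 8.88 in wild type and 7.21, 6.89 and 8.45 in the knockout. It was lower at every number, with a mean of -0.58 for the difference (SE 0.11 in the block model, adjusted p = 0.155). When replicate 1 was left out in both genotypes, both passed with the block, Gas1 at -0.89 (limma, adjusted p = 0.00256) and Pmp22 at -0.64 (0.0419). This was the only 1 of 21 alternatives in which either passed. In it 98 genes passed, against 17 with the block and all replicates.

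Genes that recognise phosphatidylserine or clear dying cells had a median of 0.02 over 22 members, of which 3 were lower and 3 higher at every number (13.8% of all genes each way), and 2 were at an unadjusted p under 0.05 with the block (6.73% of all genes). Those 2 are secreted proteins that, like Gas6, bridge phosphatidylserine to a receptor, but to integrins. Edil3 read 5.19, 5.57 and 6.78 in wild type cells and 5.69, 5.99 and 7.40 in the knockout. It was higher by 0.51, 0.42 and 0.62 (mean 0.52, SE 0.09 with the block, adjusted p = 0.141), although wild type replicate 1 lay below background. Mfge8 read 8.996, 9.21 and 10.02 in wild type and 9.39, 9.44 and 10.22 in the knockout. It was higher at every number, by a mean of 0.27 (SE 0.09, blocked limma adjusted p = 0.617). Neither passed, the genotypes overlapped for both, and a relation to the Gas6 difference was not tested. Genes that expose phosphatidylserine at the surface had a median of -0.02 over 7 members. With the block 0 of them had an unadjusted p under 0.05 in limma (6.73% of all genes). The scramblase Ano6 was at -0.06. The phospholipid scramblase family member Plscr1 was at 0.05 (-0.19, 0.13 and 0.22 in the 3 replicate numbers). Plscr1 read below background on the replicate 1 and 2 arrays of both genotypes.

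Gas6 and protein S need gamma-carboxylation, which uses reduced vitamin K. The 6 genes of this step and of ligand maturation all counted as above background in both genotypes and had a median of -0.06. On each replicate 1 and 2 array only 5 of the 6 read above the background level, while on both replicate 3 arrays 6 did. With the block 0 of the 6 had an unadjusted p under 0.05 in limma (6.73% of all genes). Vkorc1, which regenerates reduced vitamin K, was at -0.26, but -0.01, -0.74 and -0.03 in the 3 replicate numbers. Furin, a proprotein convertase, was at 0.21 (SE 0.09 with the block, adjusted p = 0.750). The other vitamin K-dependent Gla proteins had a median of 0.03 over 12 members, 7 of them above background in both genotypes. Prrg4, a membrane Gla protein, was at 0.42 (0.33, 0.26 and 0.66 in the 3 replicate numbers, SE 0.11 with the block, limma adjusted p = 0.406). Its wild type replicate 1 lay just below background. The clotting factor F7 was at 0.19 (-0.07, 0.30 and 0.33). Among other proposed ligands and sheddases (5 members, median -0.04) the lectin Lgals3 was at -0.28 (SE 0.09 with the block, limma adjusted p = 0.617). Adam17, a protease that sheds surface receptors, was at 0.21, but its wild type replicates 1 and 2 lay below background.

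Signalling proteins next to the receptors had a median of 0.05 over 17 measured members, of which 0 were lower and 4 higher at every number (13.8% of all genes each way), and 0 were at an unadjusted p under 0.05 with the block (6.73% of all genes). The ubiquitin ligase Cblb, which turns off receptor kinases, was at 0.18. The catalytic PI3-kinase subunit Pik3cb was at 0.21 (0.10, 0.44 and 0.10 in the 3 replicate numbers). It read below background on the replicate 1 and 2 arrays of both genotypes. Other receptor tyrosine kinases had a median of 0.05 over 26 measured members, of which 6 were lower and 8 higher at every number (13.8% of all genes each way), and 7 were at an unadjusted p under 0.05 with the block (4 lower, 3 higher; 6.73% of all genes). Those with the smallest p were the Wnt5a receptors Ror2 (-0.39, -0.35 and -0.33 in the 3 replicate numbers, SE 0.09 with the block, adjusted p = 0.384) and Ror1 (-0.52, -0.15 and -0.74, SE 0.12, adjusted p = 0.425). No difference between any of these lists and the TAM genes was tested.

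**Figure D3:**
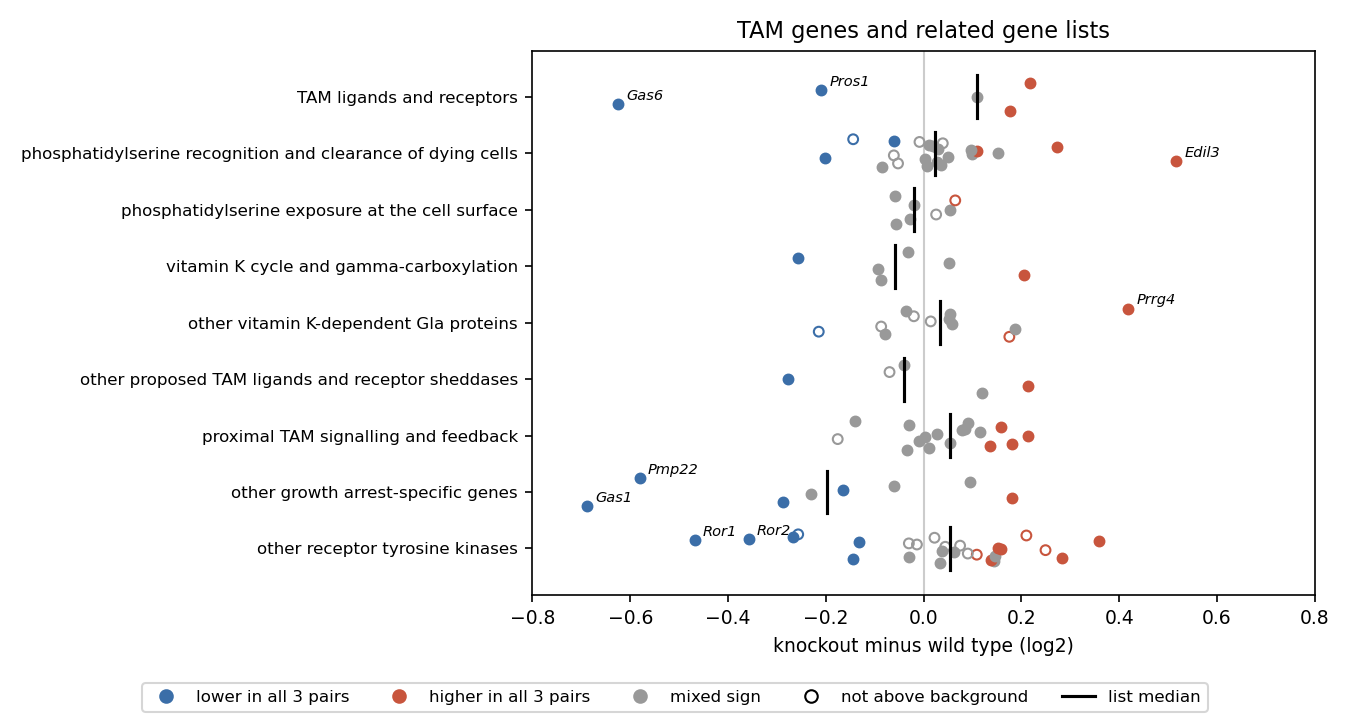
Knockout minus wild type (log2) for the TAM genes and 8 related lists, 1 circle per gene, with blue for lower and red for higher in all 3 replicate numbers, grey for mixed signs, open circles for genes not above background in both genotypes and a bar for the list median. Gas6 at -0.62 lies beside Gas1 at -0.69 and Pmp22 at -0.58 in the list of growth arrest-specific names, and Edil3 at 0.52 lies farthest to the right.

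The genes most like each member were found from the root mean square difference between profiles over the 6 arrays, after each gene's own mean was subtracted, among 11107 other genes above background. The likeness takes in the offset of replicate 3 as well as the difference between genotypes. Nearest to Gas6 were the giant cadherin Fat4 (0.09 log2 units), the elastic fibre protein Fbn2 (0.10) and Pmp22 (0.11). Fat4 was lower in the knockout by 0.83, 0.71 and 0.77 at the 3 numbers, and Fbn2 by 0.72, 0.51 and 0.80. Nearest to Pros1 were Pcf11, Paip1 and Arhgap42 (0.03 each), and nearest to Axl were Cox19 (0.03), Dyrk1b (0.04) and Dnajc27 (0.04). Nearest to Mertk were Slc37a4, Psmd9 and Uhrf1 (0.04 each). Nearest to Tyro3 was Cdkn1a, the CDK inhibitor p21 (0.03, with differences of 0.19, 0.15 and 0.15), before Ndufs7 (0.04) and Cyth2 (0.05). Gas6 thus had no neighbour as near as those of the other 4 members.

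**Figure D4:**
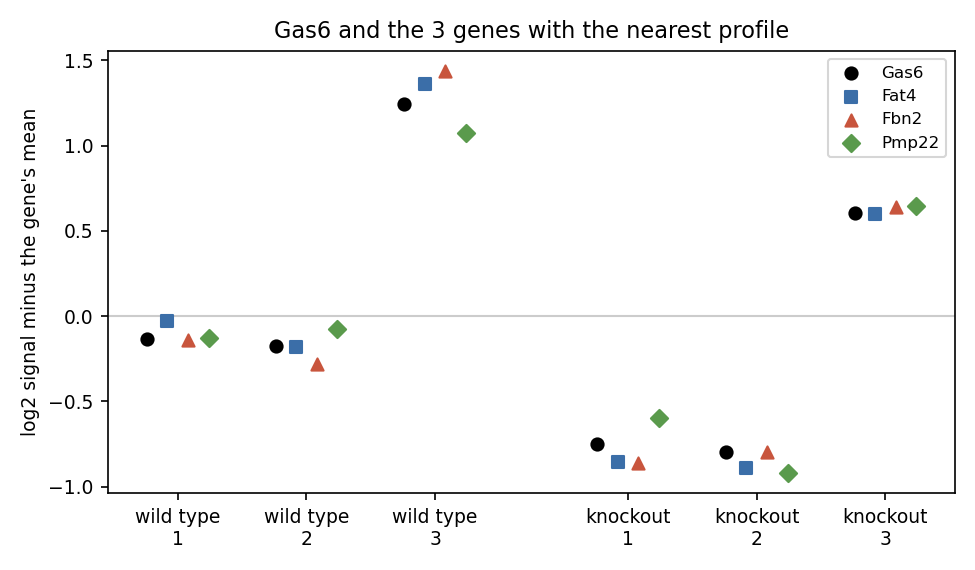
Log2 signal of Gas6, Fat4, Fbn2 and Pmp22 on each of the 6 arrays after each gene's mean over the arrays was subtracted, with 1 symbol per gene and array. All 4 genes read highest in wild type replicate 3 and lower in the knockout than in wild type at each replicate number.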

How the data were processed

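RNA of 3 wild type and 3 Pax7 knockout MEF samples was measured on 6 Affymetrix arrays. The deposited values are log2 signals made with Partek and RMA (background correction, normalization and probe summary), per the submitters' processing notes; log base 2 was inferred from the values' range. For versions, parameters and build: not given in the sources used here. Precision is limited by the number of arrays.

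Of 41345 probe sets, 23521 named 1 gene in the platform annotation, 1814 several and 16010 were not listed; only the first were used, the probe set with the highest mean over all arrays per gene (22180 genes). Entrez numbers of 23328 of these probe sets, and of all 5 members, were found in RefSeq GRCm38.p6. A gene counted as above background in a genotype if its mean exceeded the mean background level and at least 1 array its own.

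Genotypes were compared with limma 3.58.1 in R 4.3.3 (lmFit, eBayes, two-sided test) on genotype alone, tested on simulated data, with Benjamini-Hochberg adjustment over all genes at 0.05. Equal replicate numbers deviated together from their genotype's mean, with correlations of 0.875, 0.834 and 0.959, all over the bound of 0.1. Models with the number as a block were therefore run too. The pairing comes from the data, and rests largely on replicate 3. Only equal numbers were correlated, so whether replicates 1 and 2 match across genotypes by their numbers was not tested. Members, lists and tests were chosen with earlier results of these data known. Named genes were the 5 members, any list member past the threshold (in lists without one, the 2 above background with the smallest blocked p), and the 3 genes nearest each member; predicted genes were left out. Of the marker lists only Lum, Fn1, Prrx1, Col3a1, Col1a1, Vim and the macrophage and hepatocyte markers given above were named, after their values were seen. Alternatives were the batch block, each array or replicate number left out, quantile normalization, median centring, a filter on dim genes, averaged probe sets and another variance prior.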

Additional observations from a re-analysis of the deposited data

How the results depend on the processing

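Without a block, 0 genes passed in limma under any alternative that kept all 3 replicate numbers or left out 1 array; 17 passed with the replicate block and 19 with the batch block. With the replicate block, 98, 2 and 4 passed without replicates 1, 2 and 3, and, in alternatives chosen after seeing the data, 21 passed with quantile normalization, 18 with median centring, 34 with the filter on dim genes (fewer genes tested) and 46 with a trended, robust prior, while within replicates 1 and 2 without a block 1 did; the cause of these changes was not tested. Gas6 was lower under all 21 alternatives (-1.08 to -0.16 on leaving out 1 array, -0.63 to -0.62 in the 9 with a block) and passed in 4 of those 9, with adjusted p of 0.0188 to 0.99999 over all: -0.62 with the batch block, the filter with the block, and the trended prior with the block, and -0.63 with the block without replicate 1. Tyro3 was higher under all 21 (0.08 to 0.36 on leaving out 1 array). Leaving out 1 array without a block, which unbalances replicate 3, turned the sign of Pros1 (-1.003 to 0.56), Axl (-0.032 to 0.35) and Mertk (-0.049 to 0.36), none past the threshold. The same steps turned Ano6 (-0.60 to 0.52), Plscr1 (-0.17 to 0.23), Furin (-0.13 to 0.59), Vkorc1 (-0.69 to 0.060), F7 (-0.40 to 0.71), Prrg4 (-0.24 to 0.95), Adam17 (-0.14 to 0.66), Cblb (-0.31 to 0.68), Pik3cb (-0.54 to 1.02) and Edil3 (-0.0043 to 0.99). Plscr1 was also at -0.028 without replicate 3, with the replicate block and without it. The weak signals of Pros1, Mertk and Tyro3 over background limit what replicates 1 and 2 can show.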
